A study of Rattus norvegicus with 72 samples.

Results

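The genes described here encode the proteins of the cytosolic ribosome. They were taken as every gene on a rat whole-genome oligonucleotide array whose symbol follows the ribosomal protein pattern (Rpl or Rps with a number and an optional letter, the stalk proteins Rplp0 and Rplp1, and Rpsa), together with loci that the current annotation names as paralogs or copies of such genes. Of 38379 genes tested, 63 were members of the large and 46 of the small subunit, all of them past the filter on dim probes, and they were measured by 158 probes on 167 spots. A total of 70 members had standard symbols, and the other 39 were paralogs or loci named as like a ribosomal protein gene, among them Rpl3l and Rpl7l1. Rplp2, Rpl22l1, Rpl39l, Rps27l and Rpl10l had no probe in the sets used here.

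The study followed the medial collateral ligament of the knee in adult male Sprague-Dawley rats. In severed rats the ligament was cut, and in sham rats a bilateral sham operation left it whole; both sets were killed on day 1, 2, 4, 7, 10 or 14, and both had received buprenorphine and isoflurane. Fibroblasts were grown from ligaments and taken at passages 3 to 7, so the 5 fibroblast samples are passages of cultured cells and may share their source. Ligaments of 5 unmanipulated rats and a commercial universal rat reference RNA, labelled 3 times with Cy5 and 3 times with Cy3, completed the 72 columns of intensities. There were 5 columns in each severed and sham group except on day 7. On that day 1 of 3 severed columns could not be used, and the 3 sham columns differed from each other by less than other columns of a group did and were counted as 1 sample. Severed and sham samples of a day carried different dyes, with Cy5 on the severed samples of days 2, 7, 10 and 14 and on the sham samples of days 1 and 4 per the file headers, so the fits held a term for dye; for day 2 the sample labels give the opposite dyes.

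Ribosomes translate every mRNA of the cell, and their proteins are made in step so that the subunits can be assembled in the nucleolus. The mRNAs of most ribosomal proteins begin with a C followed by a run of pyrimidines, the terminal oligopyrimidine (TOP) motif, through which mTOR signalling controls how strongly they are translated. In a healing ligament, fibroblasts divide and secrete collagen, work that calls for many ribosomes.

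Promoters of 6 members whose level differed between cultured fibroblasts and unmanipulated ligament are printed to show where this motif lies: Rpl10a, Rpl3 and Rpsa, which were higher in fibroblasts, and Rps21, Rps24 and Rpl34, which were lower. Each line gives 60 bases before to 20 bases after the annotated start in the RefSeq annotation of rat build GRCr8, read 5′ to 3′ on the gene's own strand, and capitals mark CTTTC or CTTTT or CTTCC lying within 10 bases of the start.
Rpl10a, chr20:6390473-6390552, strand plus: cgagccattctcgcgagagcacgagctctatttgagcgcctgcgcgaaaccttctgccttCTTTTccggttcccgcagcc
Rpl3, chr7:113507971-113508050, strand minus: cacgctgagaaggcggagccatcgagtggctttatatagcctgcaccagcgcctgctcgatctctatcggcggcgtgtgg
Rpsa, chr8:128728819-128728898, strand plus: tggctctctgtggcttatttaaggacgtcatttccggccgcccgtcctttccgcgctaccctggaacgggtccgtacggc
Rps21, chr3:187723978-187724057, strand plus: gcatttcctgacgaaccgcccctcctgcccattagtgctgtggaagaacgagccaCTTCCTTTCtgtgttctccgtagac
Rps24, chr16:96457-96536, strand plus: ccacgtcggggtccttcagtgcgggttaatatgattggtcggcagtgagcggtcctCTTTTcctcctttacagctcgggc
Rpl34, chr2:221962264-221962343, strand minus: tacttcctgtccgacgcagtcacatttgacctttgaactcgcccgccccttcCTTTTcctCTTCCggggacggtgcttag
In the 21 bases around the start, 33 of 57 promoters of standard members held one of the 3 motifs on the coding strand (57.89%), against 3 of 28 promoters of the like loci (10.71%) and 2736 of 33469 promoters of all genes (8.175%). On the other strand the shares were 5.263%, 17.86% and 9.137%. CTTCC overlaps CTTTC or CTTTT where the letters run on, as in Rps21. The windows of Rpl3 and Rpsa held none of the 3 motifs, which says only that these letters are not there. A match is a description of sequence, not a mapped start of transcription.

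Values are log2 of background-subtracted intensity after quantile normalization, which gives every column the same distribution, and, as a second scaling, log2 of intensity after each column was set to the same median. The median column intensity ran from 8 to 13060, and 88.92% of member spots lay above the 95th percentile of the negative control spots in the median column, against 36.77% of all spots. Members were among the brightest spots on the array: 10.55% of their values were above 60000, close to the scanner's ceiling, against 0.1751% of all values. Outside the fibroblast columns, whose spot flags were not used, the scanning software had not found the spot behind 164 of 4437 values of bright member spots (3.70%, against 2.88% for bright spots as a whole), and Rpl35, Rpl13 and Rpl32 were the members most often affected. Stretches of spots whose values had lost their relation to the other columns were left out, which touched 23 columns and 7.578% of values; the first fibroblast column lost 42.68% of its stretches. The number of arrays limits the precision, and a difference between groups of a bulk tissue cannot tell fewer cells of a type from less RNA per cell.

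The summed picture of the family depended on the scaling. With quantile normalization the median level of the members stayed within a narrow band, at 12.74 ± 0.148 in fibroblasts and 12.65 ± 0.112 in unmanipulated ligament (log2, SD, n = 5 each). For days 1, 2, 4, 7, 10 and 14 it was 12.74, 12.29, 12.81, 12.74, 12.36 and 12.57 in severed ligaments, against 12.68, 12.41, 12.56, 12.92, 12.54 and 12.56 in sham ligaments. Severed day 4 replicate 4, at 13.97, had values for 18 members only and had lost 90.24% of its stretches; without it the severed mean of that day was 12.52 (n = 4), below the sham mean. The pooled SD between columns of a group was 0.373, larger than the gap between severed and sham on every day. That SD is a spread of single columns. It is not the error of a gap between group means, whose severed and sham columns mostly share arrays. With median scaling the same quantity ranged from 8.59 to 15.22 over columns, with a pooled SD of 1.07.

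Group means of the median-scaled levels followed the dye. On every day the group labelled with Cy5 had the higher mean of the member median: severed ligaments at days 2, 7, 10 and 14 (severed 13.19, 13.5, 11.87 and 13.21; sham 10.45, 11.11, 11.66 and 10.19) and sham ligaments at days 1 and 4 (severed 12.06 and 11.95; sham 13.93 and 13.38). Single columns overlapped on days 2, 4 and 10, with 9.73 to 13.29 in severed and 9.93 to 12.34 in sham ligaments of day 10. On days 1, 7 and 14 they did not overlap. Day 14 ran from 12.69 to 13.99 in severed and from 9.57 to 11.49 in sham ligaments. The part of dye in this was not tested apart from the dye term, since no group of operated rats was measured in both dyes. The reference RNA, which was, had member medians of 11.45 in Cy5 and 11.20 in Cy3 with median scaling, and 12.24 and 12.28 with quantile normalization. Between the 2 dyes of the reference no gene passed the limma threshold (0% of genes tested, adjusted p under 0.05), 1 member had an unadjusted p under 0.05, and the median difference of the members, Cy5 minus Cy3, was -0.06.

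**Figure D1:**
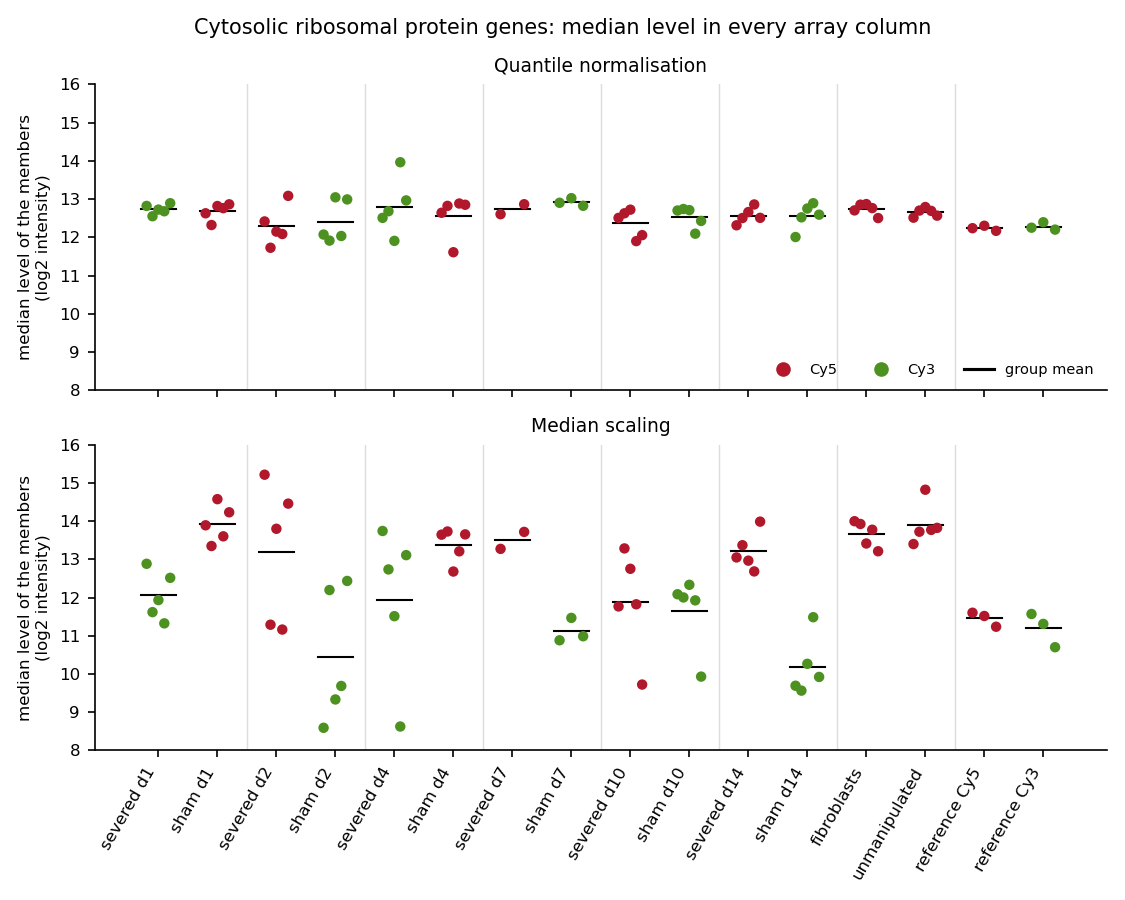
Median level of the ribosomal protein genes in each array column (log2 intensity), after quantile normalization above and after median scaling below, by group; points are columns coloured by dye (Cy5 red, Cy3 green) and bars are group means. Quantile values sit between 11.61 and 13.97, while median-scaled values range from 8.59 to 15.22, with the higher group mean of each day in Cy5 and overlap between single columns.

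Cutting the ligament was followed by no call in this family in the main fit, which had quantile normalization, a dye term and no replicate block. In the mean over the 6 days, severed minus sham, no member passed limma at an adjusted p of 0.05, and neither did any other gene (0% of genes tested); 5 members had an unadjusted p under 0.05, against 2.37% of all genes. The median difference was 0.02 on the log2 scale with quantile normalization (57 members above 0 and 52 below; 0.01 over all genes) and 0.80 with median scaling (0.08 over all genes). The median standard error of a member's difference was 0.299. The 5 included Rpl12l1, a locus like Rpl12, at 0.64 (standard error 0.271), and the small-subunit gene Rps25 at 0.38 (0.161), both with a limma adjusted p of 1. Rpsa, a small-subunit protein also known as the laminin receptor, differed by 0.13 (0.179), and Rpl3, a large-subunit protein close to the peptidyl transferase centre, by -0.12 (0.319). Rps6, the small-subunit protein phosphorylated by S6 kinase, was saturated in every severed and sham column with a value on days 1, 4, 7 and 10, so no difference is given.

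Day by day the median difference of the members ran between -0.18 and 0.21 with quantile normalization. For days 1, 2, 4, 7, 10 and 14 it was -0.02, 0.16, -0.18, 0.07, 0.10 and 0.21. Median scaling gave -1.59, 2.55, -0.52, 2.01, 0.12 and 2.52 on these days, against -0.13, 0.24, -0.06, 0.09, 0.09 and 0.15 over all genes; its signs were those of the quantile values, and all of its large values sat on the side of the Cy5 group. In the main fit no member passed limma at an adjusted p of 0.05 on any day. The share of all genes called there was 0% on days 1, 2, 4, 7 and 10 and 0.00521% on day 14. Same-numbered severed and sham columns were mostly the 2 dyes of 1 array, and with the number as a replicate block 1 member, Rpl3l, was lower on day 10 (limma adjusted p 0.0408), with 0.0391% of all genes called. Members with an unadjusted p under 0.05 numbered 4, 3, 1, 1, 6 and 8 in the order of the days, against 1.07%, 2.55%, 0.373%, 0.735%, 1.56% and 3.48% of all genes. With median scaling 6 members were higher in severed ligaments on day 14 (among them Rpl30, Rpl39, Rps24, Rps25 and Rps25l2) and none lower, with 1.05% of all genes called.

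**Figure D2:**
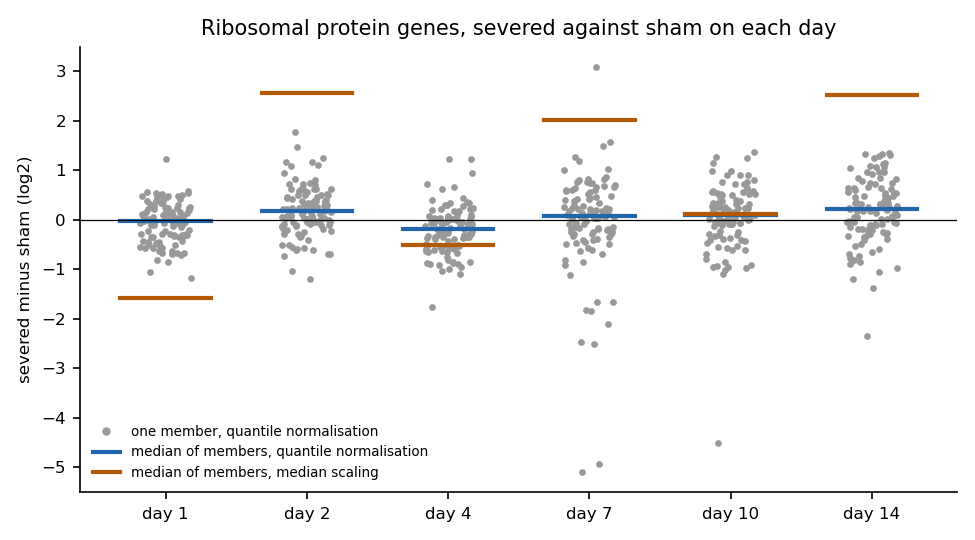
Difference between severed and sham ligaments for each ribosomal protein gene (log2, severed minus sham, quantile-normalized, points) on days 1 to 14, with the median over genes after quantile normalization (blue bar) and after median scaling (orange bar). The quantile medians stay between -0.18 and 0.21, and the median-scaled medians range from -1.59 to 2.55.

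The widest swings between severed and sham belonged to single members. Rpl3l, the paralog of Rpl3 known from mouse and human as the form used by striated muscle, stood lowest of all members on days 10 and 14 and highest on day 1. On day 10 it read 8.18, 6.49, 8.32, 8.48 and 10.04 in severed ligaments, against 12.72, 12.03, 13.60, 14.29 and 11.55 in sham ligaments. Every severed value lay below every sham value, and the fitted difference was -4.51 with a standard error of 1.65 and a limma adjusted p of 1, or 0.0408 with the replicate block. On day 14 its 4 severed values were 11.76, 12.66, 9.04 and 12.55, against 14.39, 13.13, 13.21 and 14.84 in 4 sham ligaments, again without overlap (difference -2.36, standard error 1.73). On day 1 the severed ligaments read 14.40, 14.19, 14.30, 13.24 and 13, against 13.66, 12.50, 13.61, 12.03 and 11.10 in sham, so the groups overlapped (fitted difference 1.21).

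Muscle markers moved with Rpl3l. On day 10 all 15 measured skeletal muscle markers, such as Ckm (muscle creatine kinase) and Tnnc2 (fast troponin C), were below 0, with a median difference of -3.60, none past the threshold and 10 with an unadjusted p under 0.05. The median level of these markers ran from 7.66 to 10.93 in severed and from 12.07 to 14.33 in sham ligaments of that day. Over 53 ligament columns Rpl3l followed the median of the markers with a Pearson r of 0.905, and over 52 columns the deviations of both from their group means had an r of 0.860; the columns share normalization and, in part, arrays. Rpl3 itself had an r of 0.132 with the markers over 53 columns. The part of muscle attached to the dissected ligament in the values of Rpl3l was not tested.

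**Figure D3:**
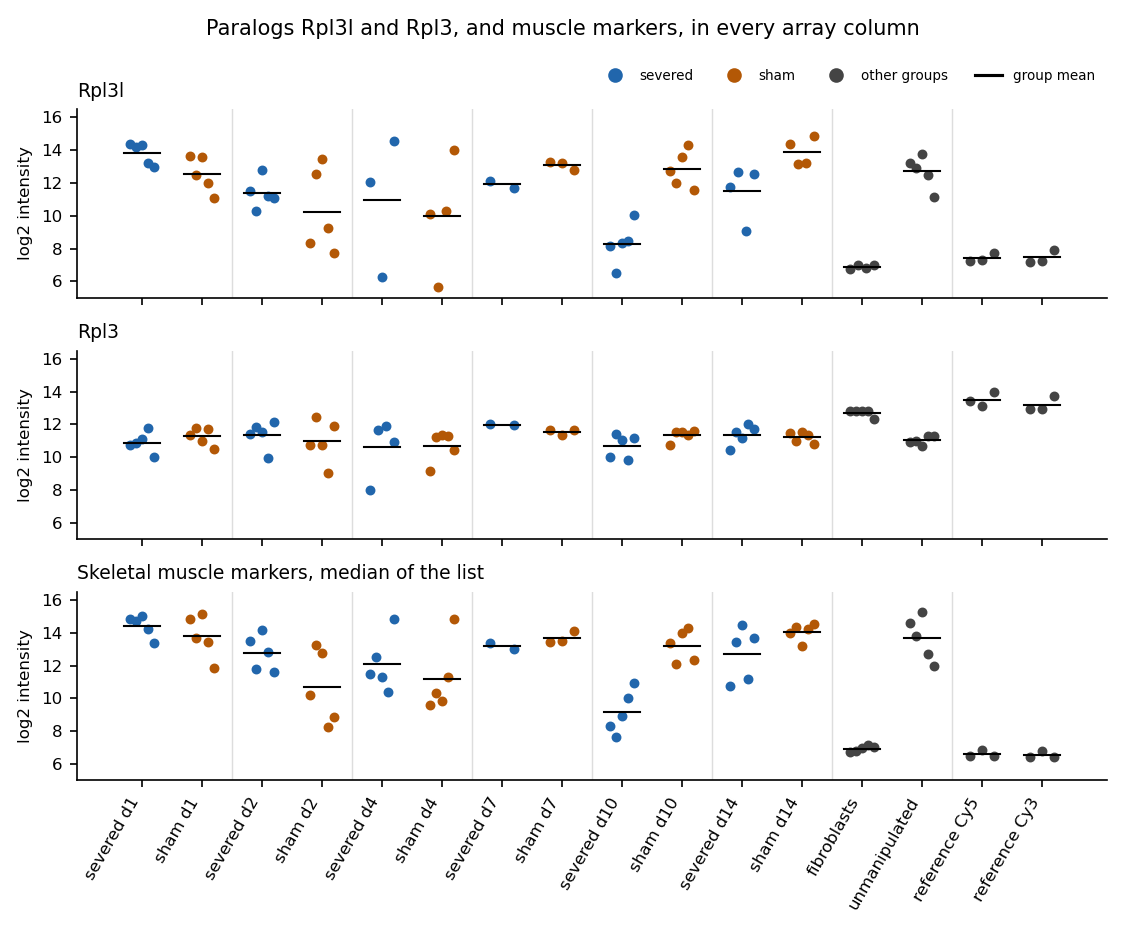
Levels of Rpl3l, of its paralog Rpl3 and of the skeletal muscle marker median (log2 intensity, quantile-normalized) in every array column, by group; the 3 sham columns of day 7 are drawn separately though they count as 1 sample. Rpl3l lies at 6.73 to 7.01 in fibroblasts and 11.13 to 13.75 in unmanipulated ligament and moves with the muscle markers, while Rpl3 does not.

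Other members at the ends of the daily rankings differed in how well they were measured. On day 1 Rps24 was lowest, with a mean of 15.47 in severed ligaments, where 4 of 5 columns were saturated, and 15.95 in sham ligaments, where all 5 were, so no size is given. On day 14 its means were 15.83 in severed and 15.28 in sham ligaments, with no overlap and 4 of 5 severed columns saturated. The fitted difference was 1.25 (standard error 0.380, limma adjusted p 0.808). It is wider than the gap between the means because of the dye term. In the reference RNA Rps24 differed by -0.695, Cy5 minus Cy3. Rps25l2, a locus like the small-subunit gene Rps25, stood at 1.27 on day 10 (standard error 0.410), also with no overlap. On day 7, with 2 severed samples and 1 sham sample, Rpl26 (-5.10), Rpl35 (-4.94) and Rplp1, an acidic stalk protein (-2.51), were lowest and Rpl9 (3.08) was highest, and the standard errors were 4.30, 5.28, 0.975 and 3.10. Without severed replicate 3 Rplp1 stood at -4.94, which sets 1 column against 1 and takes its spread from the other groups. Its 2 severed values were 7.15 and 12.01, and the software had not found a spot of Rplp1 in 1 of these columns. Bright spots that the software had not found occurred for Rpl35 in 18, for Rpl26 in 7 and for Rplp1 in 1 of all columns.

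Comparisons within Cy5 set operated ligaments against unmanipulated ligament without a change of dye. Severed ligaments of days 7, 10 and 14 had no member past the threshold (0.552% of all genes called by limma; 2 members with an unadjusted p under 0.05, against 9.68% of all genes). The median difference was -0.06 with quantile normalization and -0.90 with median scaling, where 1 member, Rps18l2, was lower, against 5.76% of all genes called (0.366% higher and 5.39% lower; with quantile normalization 0.185% and 0.367%). With the replicate block 1 member was lower, and the share of all genes called in that fit is not given here. Sham ligaments of days 1 and 4 had none either (0.00261% of all genes called; 0 members with an unadjusted p under 0.05, against 4.12%), with medians of 0.01 and -0.12, so here the sign changed with the scaling. Rpl3l stood at -2.13 in the late severed ligaments (standard error 0.883, limma adjusted p 0.368) and stood at -1.41 in the early sham ligaments; muscle markers had a median of -1.60 in the late severed comparison. Without severed replicate 3 of day 7, Rplp1 stood at -1.27 in the late severed comparison, with 1 severed column then left on day 7. A spot of Rplp1 had not been found in 1 of the usable severed columns of that day.

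Cultured fibroblasts and unmanipulated ligament differed in single ribosomal protein genes, while the median of the family turned with the scaling. With quantile normalization 3 members were higher and 11 lower in fibroblasts (limma, adjusted p under 0.05), against 9.58% of all genes called, 4.90% higher and 4.68% lower; 21 members, and 20.8% of all genes, had an unadjusted p under 0.05. The share of members called was therefore near that of all genes. The median difference of the members was -0.04 (-0.02 over all genes) with quantile normalization, -0.73 (-0.04) with median scaling and 0.53 in the authors' processed values, where the median of all genes was itself 1.35, so the sign of the family's median changed with the scaling. Of the called members, 21.4% were higher with quantile normalization, 25% with median scaling (2 higher, 6 lower) and 94.4% in the authors' processed values (17 higher, 1 lower). Over all genes the corresponding shares were 51.1%, 53% and 91%, so in the authors' processed values the members' share was near that of all genes. With median scaling 15.9% of all genes were called (8.42% higher, 7.47% lower), and in the authors' processed values 36.1% (32.8% higher, 3.24% lower).

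The calls also rested on how misread stretches of spots were treated. With no stretch left out, 6 of the 14 calls were retained and none added (4.25% of all genes called), and with spots not found set to missing there were 29, the 14 among them (16.9%). That setting could be applied to the ligament and reference columns and not to the fibroblasts, so it treats the groups of this comparison unequally. Median scaling called 8, of which 6 were among the 14. The authors' processed values called 18, of which 4 were among the 14: Rpl10a, Rpl3 and Rpsa, higher, and Rpl3l, the 1 member lower there, so the other 10 lower calls were lost. The replicate block called 25, the 14 among them (18.7% of all genes). Rpl3l, Rpl36al1, Rps12l5, Rps24 and Rps25l2 were called under quantile normalization, median scaling and with no stretch left out alike, and of these only Rpl3l was also called in the authors' processed values. Without the columns that lost over 40% of their stretches, the first fibroblast column among them, 16 members were called, including all 14 (8.98% of all genes).

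**Figure D4:**
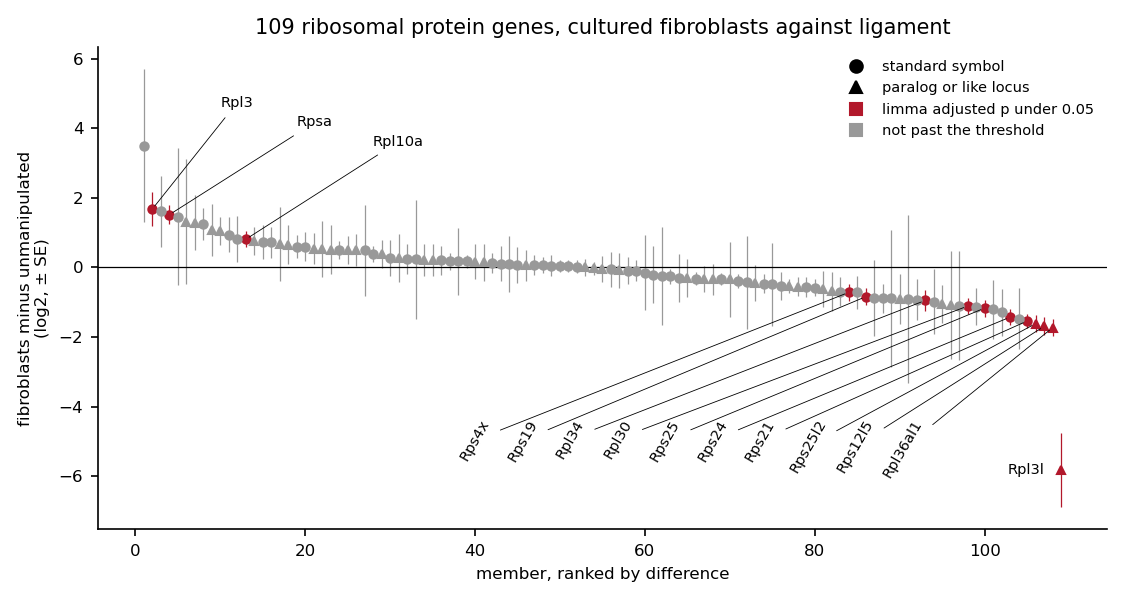
All ribosomal protein genes measured, ranked by their difference between fibroblasts and unmanipulated ligament (log2, fibroblasts minus unmanipulated, quantile-normalized, with standard errors); circles are standard symbols, triangles paralogs and like loci, and red marks an adjusted p under 0.05. Of the 14 red members 3 are higher and 11 lower in fibroblasts, with Rpl3l lowest at -5.81.

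Among large-subunit members higher in fibroblasts, Rpl3 led. It read 12.78, 12.79, 12.83, 12.78 and 12.35 in fibroblasts, against 10.90, 11.01, 10.70, 11.30 and 11.26 in unmanipulated ligament. The groups did not overlap, and the difference was 1.67 with a standard error of 0.486 (3.19-fold, limma adjusted p 0.0166). Rpl10a, another large-subunit protein, had 14.18, 13.75, 14.28, 14.56 and 14.13 in fibroblasts, against 13.26, 13.25, 13.73, 12.98 and 13.65 in unmanipulated ligament, with the lowest fibroblast value just above the highest ligament value (difference 0.81, standard error 0.226, limma adjusted p 0.0122).

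The small-subunit protein Rpsa was the third member that rose. Its values were 12.62, 12.76, 12.43, 12.81 and 12.71 in fibroblasts, against 11.13, 11.27, 11.06, 11.10 and 11.20 in unmanipulated ligament. Both groups were tight and more than 1 log2 unit apart (difference 1.51, standard error 0.273, 2.85-fold, limma adjusted p 4.62e-05). Rpl3, Rpsa and Rpl10a lost their calls with median scaling (limma adjusted p 0.164, 0.179 and 0.83) and with no stretch of spots left out (0.128, 0.279 and 0.459), and stayed higher in both.

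Rpl3l was the member with the widest difference. It read 6.73, 6.99, 6.82 and 7.01 in 4 fibroblast columns, against 13.22, 12.90, 13.75, 12.51 and 11.13 in unmanipulated ligament. The fibroblast values lay close to those of the reference RNA, 7.24, 7.30 and 7.74 in Cy5. The difference was -5.81 with a standard error of 1.07 (56.2-fold lower in fibroblasts, limma adjusted p 8.08e-05). Beside it, 14 of 15 skeletal muscle markers were lower in fibroblasts, with a median of -6.68; their median level ran from 6.74 to 7.14 in fibroblasts and from 11.97 to 15.25 in unmanipulated ligament, and the part of this in the value of Rpl3l was not tested. All 6 red cell markers were lower as well (median -8.06), as were the ligament genes Comp (-7.21), Tnmd (-6.53), Thbs4 (-5.37) and Fmod (-5.19). These ligament genes came from a list that also held Col1a1, Col1a2, Col3a1, Mkx and Dcn, whose differences are not given here.

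Small-subunit genes made up most of the members that fell. Of the 30 standard small-subunit genes 1 was higher and 5 lower, with a median difference of -0.34, and of the 40 standard large-subunit genes 2 were higher and 2 lower, with a median of 0.05; the difference between subunits was not tested. With median scaling the medians were -1.01 and -0.85, and in the authors' processed values 0.26 and 0.51. Rps21 read 14.17, 13.93, 14.17, 14.25 and 14.34 in fibroblasts, against 15.37, 15.96, 15.33, 15.97 and 15.93 in unmanipulated ligament. Every fibroblast value lay below every ligament value, and the ligament values were near the scanner's ceiling (difference -1.54, standard error 0.206, limma adjusted p 6.67e-08).

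Rps24, a small-subunit gene mutated in some human families with Diamond-Blackfan anaemia, had 14.24, 14.34, 13.83, 13.82 and 14.01 in fibroblasts, against 15.35, 15.17, 15.59, 15.65 and 15.61 in unmanipulated ligament. No value overlapped, and 3 of the 5 ligament columns were saturated (difference -1.43, standard error 0.232, limma adjusted p 6.83e-06). Rps25, which is needed by some viral mRNAs for translation without a cap, had 13.01, 12.73, 12.87, 12.58 and 12.94 in fibroblasts, against 13.60, 14.10, 13.74, 14.00 and 14.53 in unmanipulated ligament (difference -1.17, standard error 0.243). These groups were apart as well. The related locus Rps25l2 fell with it (12.62 ± 0.272 in fibroblasts and 14.23 ± 0.4 in unmanipulated ligament, SD, n = 5 each, difference -1.61); copies of a gene can share probes' targets, so the 2 may not be separate measurements.

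Rps19, the gene most often mutated in human Diamond-Blackfan anaemia, and Rps4x, a small-subunit gene on the X chromosome, had smaller differences. Rps19 read 14.07, 14.41, 14.14, 13.91 and 13.80 in fibroblasts, against 14.31, 15.46, 14.64, 14.93 and 15.21 in unmanipulated ligament, so the groups overlapped (difference -0.84, standard error 0.245, limma adjusted p 0.0172). Rps4x averaged 13.26 ± 0.121 in fibroblasts and 13.98 ± 0.389 in unmanipulated ligament (SD, n = 5 each), also with overlap (difference -0.72, limma adjusted p 0.0397). In the authors' processed values both were slightly higher in fibroblasts, at 0.14 and 0.19. Leaving out single columns in turn kept the call of Rps4x in 2 of 10 fits and that of Rps19 in 7 of 10; Rps19 lost it without unmanipulated replicate 2, unmanipulated replicate 5 or fibroblast replicate 5.

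Large-subunit members that fell were Rpl36al1, Rpl30 and Rpl34, beside Rpl3l. Rpl36al1, a locus like Rpl36a, had 13.07, 13.07, 12.91, 13.11 and 13.06 in fibroblasts, against 14.55, 15.16, 14.20, 14.95 and 15.01 in unmanipulated ligament, and 9.12, 9.99 and 9.40 in Cy5 reference RNA. The 3 groups were well apart (fibroblasts minus unmanipulated -1.73, standard error 0.246, limma adjusted p 3.20e-07). Rpl30 read 10.66, 10.49, 10.64, 10.82 and 10.54 in fibroblasts, against 11.53, 12.37, 11.25, 11.45 and 12.10 in unmanipulated ligament (difference -1.11, standard error 0.220). Rpl34 averaged 12.79 ± 0.0753 in 4 fibroblast columns and 13.74 ± 0.401 in 5 unmanipulated ligaments (SD, difference -0.95, limma adjusted p 0.0414) and kept its call in 3 of 10 fits that left out a column. Rpl10a kept its call in 8 of 10, losing it without unmanipulated replicate 4 or fibroblast replicate 4. The small-subunit locus Rps12l5, like Rps12, was lower as well, at 13.36 ± 0.109 in fibroblasts and 15.05 ± 0.562 in unmanipulated ligament (SD, n = 5 each, difference -1.69).

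**Figure D5:**
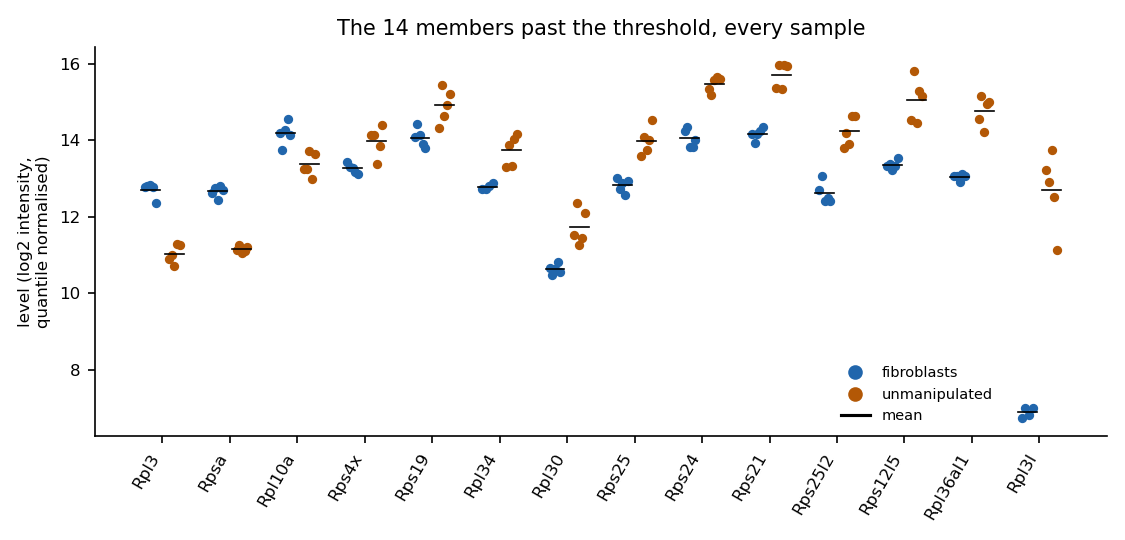
Levels (log2 intensity, quantile-normalized) of the 14 ribosomal protein genes called between fibroblasts and unmanipulated ligament, with every sample as a point. Values of the groups do not overlap except for Rps19 and Rps4x.

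Several well-known members did not pass the test. The stalk proteins Rplp0 and Rplp1 stood at 0.73 (limma adjusted p 0.436) and -0.89 (0.207), each with no overlap between the groups: Rplp0 read 9.60, 9.41, 9.49 and 9.51 in 4 fibroblast columns, against 8.93, 8.78, 8.39, 8.83 and 8.95 in unmanipulated ligament. The 2 probes of Rplp0 had opposite signs in this comparison, at 2.12 and -0.66. Rpl5 and Rpl11, which with a ribosomal RNA form the particle that binds Mdm2 and so stabilises p53, did not pass either; Rpl5 stood at 0.07, and Rpl11 was saturated in all fibroblast columns. Rpl10, which joins the large subunit late, stood at 0.11, Rpl22 at -0.09, Rpl39, which lines the exit tunnel, at -0.58 (0.167), and Rpl7l1, a paralog of Rpl7, at 1.05 (0.101). Rps6, Rpl23 and Rpl7a were saturated in both groups, so no fold is given. Rpl13a, known in human cells as part of a complex that silences translation, was saturated in fibroblasts.

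Some large differences rested on spots at the floor. Rps3a ranked first, at 3.5 with a standard error of 2.20 (limma adjusted p 0.403); it read 15.28, 15.69, 14.94 and 14.69 in fibroblasts, against 5.64, 15.74, 15.63, 15.61 and 5.64 in unmanipulated ligament. The value 5.64 is the floor, an intensity of 50, and the other 3 ligament values lay among or above those of the fibroblasts. Rps13, at 1.62 (0.405), and Rpl13, at 1.46 (0.764), owed their rank to 1 ligament column each: the fifth unmanipulated column read 5.64 for Rps13 and 9.29 for Rpl13, while the other 4 read 11.88 to 12.96 for Rps13 and 13.81 to 14.43 for Rpl13. Rps27a, which is made as a fusion with ubiquitin, stood at -1.10 with a standard error of 1.57, with 1 column of each group at the floor; with spots not found set to missing outside the fibroblasts, only the fibroblast column stayed at the floor, and the difference was -3.03 (limma adjusted p 0.0113).

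Other genes of the translation machinery were read from lists. Of 16 measured translation factors and other genes with TOP mRNAs 5 were higher in fibroblasts and none lower, namely Eef2 (2.39), Eef1d (1.70), Rack1 (1.65), Eef1a1 (1.38) and Pabpc1 (1.02), with a list median of 0.57; with median scaling 1 was higher and the median was 0.34. Of 23 measured ribosome biogenesis genes 1 was higher, Bysl (1.56), and the median was 0.56, or 0.53 with median scaling, where 3 were higher. Mitochondrial ribosomal proteins, a separate set of 61 genes, had 5 higher and 5 lower, with Mrpl17 (1.46) and Mrps12 (1.19) among the higher and Mrps18c (-1.53) among the lower; their median was -0.10, or -0.32 with median scaling. None of 12 translation control genes passed. Over all genes 9.58% were called in this comparison, 51.1% of them higher, and 15.9% with median scaling. No list was tested against these shares. In severed minus sham, mean of the days, none of these lists had a called gene.

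Against the reference RNA, a mixture of rat sources, the members divided. In unmanipulated ligament 41 members were higher and 16 lower than in Cy5 reference RNA (limma, adjusted p under 0.05), against 29.8% of all genes called, 13.3% higher and 16.5% lower, and 37.9% of all genes had an unadjusted p under 0.05. The median difference was 0.79 (0.16 over all genes). In fibroblasts 32 were higher and 14 lower (24.4% of all genes called, 11.4% higher and 13% lower), with a median of 0.72 (0.08). Higher members made up 71.9% of the calls in ligament and 69.6% in fibroblasts with quantile normalization, and 93.8% (61 higher, 4 lower) and 92.3% (48 higher, 4 lower) with median scaling, where the medians were 3.02 and 2.05. Over all genes these shares were 44.6% and 46.7% with quantile normalization and 52.9% and 53.4% with median scaling, where 38.3% of all genes were called in ligament (20.3% higher, 18% lower) and 32.9% in fibroblasts (17.6% higher, 15.3% lower). Both comparisons share the 3 reference columns, whose spread is that of repeated labelling of one RNA.

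Standard genes and like loci lay on different sides of the reference with quantile normalization. Of 70 standard genes 33 were higher and 4 lower in unmanipulated ligament, with a median of 1.30, and of 39 like loci 8 were higher and 12 lower, with a median of -0.22; with median scaling the like loci had a median of 0.74, so their sign changed. In fibroblasts the standard genes had 26 higher and 2 lower (median 1.06) and the like loci 6 higher and 12 lower (median -0.31; 0.56 with median scaling). Standard small-subunit genes had medians of 1.75 in ligament and 1.46 in fibroblasts, and large-subunit genes 0.94 and 0.93. Of the 61 mitochondrial ribosomal proteins 32 were higher and 6 lower in ligament, and 30 higher and 3 lower in fibroblasts. The 16 translation factors and other genes with TOP mRNAs had 3 higher and 8 lower in ligament (median -0.88, or 1.19 with median scaling) and 4 higher and 6 lower in fibroblasts (median -0.55, or 1.44 with median scaling), so the sign of that list turned with the scaling.

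The top members were Rps13, at least 43.2-fold higher in unmanipulated ligament and at least 132-fold higher in fibroblasts than in the reference, where its probe was not above background (limma adjusted p 7.00e-05 and 2.45e-06), and Rpl23, at least 40.8-fold and at least 38.2-fold higher, being saturated in both. The scanning software had not found the Rps13 spot in any of the 3 Cy5 reference columns, and its values there are the floor, 5.64. Rps6 was at least 13.9-fold higher in ligament and at least 14.2-fold in fibroblasts, with 11.93, 12.36 and 11.81 in the reference columns. Rpl39 was 3.90 higher in ligament and 3.33 in fibroblasts, and Rpl11 2.46 in ligament and at least 2.63 in fibroblasts, where it was saturated, all on the log2 scale. Rpl3l was 5.28 higher in ligament (limma adjusted p 0.000269) and did not pass in fibroblasts (-0.54, 0.856).

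Rpsa and Rpl3 were among the standard genes lower than the reference. Rpsa read 14.08, 14.51 and 14.34 in Cy5 reference RNA, above every fibroblast and ligament value, and differed by -3.16 in unmanipulated ligament (standard error 0.316) and -1.64 in fibroblasts. Rpl3 read 13.43, 13.14 and 13.94 there and differed by -2.47 in ligament (limma adjusted p 0.000351) and -0.80 in fibroblasts (0.358). Rplp0 stood at -1.96 in ligament (0.00277) and -1.23 in fibroblasts (0.102), each the mean of 2 probes of opposite sign. These probes stood at -5.33 and 1.42 in ligament and at -3.215 and 0.76 in fibroblasts. The lowest members of all were like loci: Rpl36l1 and Rpl29l1 in ligament (-3.29 and -3.22) and Rpl32l1 in fibroblasts (-2.96).

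The spread of the members within groups was close to that of other genes. The residual SD of a gene between columns of a group had a median of 0.726 for members, 0.667 for standard genes, 0.792 for like loci and 0.701 for all genes. Where a member had several probes these often disagreed: of 36 such genes, 17 had probes of opposite sign between fibroblasts and unmanipulated ligament, and in 13 the probes differed by over 1 log2 unit. The probes of Rpl30, Rpl36al1 and Rpsa had one sign each in that comparison. Against the reference, probes differed by over 1 log2 unit in 28 of the 36 genes for unmanipulated ligament and in 23 for fibroblasts. Genes with probes of opposite sign numbered 14 and 16 there, so sizes against the reference depend on the probe.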

How the data were processed

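Per the file headers, the authors' deposited matrix holds, for each array column, the intensity of each spot as median foreground minus background from GenePix scans of Agilent rat arrays, with a spot flag that marks spots not found; each array carried up to 2 samples in different dyes. The flag columns of the 5 fibroblast samples were not used, since the fibroblast columns are tied to their group and not to single samples, and 1 measure, the intensity, was kept for them. The authors' deposited value table holds log2 values whose scaling step is not given in the sources used here; each of its 72 columns tracked log2 of its own sample's intensity best (Pearson r 0.989 to 1.00), with column medians from 6.37 to 7.78, so its scale and direction are known and its centring is not, and it served as an alternative. The labels say that ligaments were freeze-dried before RNA extraction. Intensities were taken as background-subtracted and were floored at 50 before log2; control spots were left out. Windows of 500 spots, in spot order, whose correlation with the median of the other columns was under 0.4 were set to missing, and columns were then quantile-normalized. The design fixed for this work had these steps in the other order, which was run as an alternative. Probes over an intensity of 100 in at least 3 columns were kept and averaged to 1 value per gene. Gene names came from the file's symbols and, through accessions, from the RefSeq gene table; 18521 of 41012 gene probes were named (45.16%), and other probes were tested under their own identifiers. Each gene was fitted with 15 groups and a dye term, with variances moderated by limma 3.58.1 in R 4.3.3 and Benjamini-Hochberg adjustment over 38379 genes at 0.05. Reference comparisons used the Cy5 reference columns. Rats are the replicates of ligament groups, passages those of fibroblasts, and repeated labelling those of reference RNA. Simulated data over 38379 genes had 100 genes changed by 1 log2 unit and 100 by 2. The fit recovered 5% and 66% of these between fibroblasts and unmanipulated ligament, and 33% and 94% in the mean severed minus sham comparison. In the data 9.58% of all genes were called between fibroblasts and unmanipulated ligament. The adjusted threshold was therefore less strict there than in the simulation, and the 5% and 66% do not give the power of that comparison. The simulated noise was independent between columns, also those of 1 array, and the change was the same on every day. The 33% and 94% therefore do not give the power of severed minus sham in the data. Named genes were all members called between fibroblasts and unmanipulated ligament, the 5 highest and 5 lowest of each comparison and a set list of well-known members; members and lists were chosen with earlier results of these data known. Values of some members are not reported here. Python 3.11.15, numpy 2.4.6, pandas 2.3.3 and matplotlib 3.10.9 were used.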

Additional observations from a re-analysis of the deposited data

Results flagged for a closer look

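Chance alone singles out about 1 in 20 groups by the test used here, which asks whether the highest or lowest of the samples of a group lies apart from the rest; 28 groups of called members and 24 group medians were tested. The median level of the members with quantile normalization was 11.61 in sham day 4 replicate 3 (log2), below the other 4 sham samples of that day. With median scaling the median level of the members was 9.93 in sham day 10 replicate 5, below the other 4. Rpl3 read 12.35 in fibroblast replicate 5 and 12.78 to 12.83 in the other 4 fibroblast columns. Rpl36al1 read 12.91 in fibroblast replicate 3, below the other 4 fibroblast columns. With quantile normalization, on no day did every severed column's member median lie above or below every sham column's. The 3 sham columns of day 7 were taken singly here, and their mean, 12.92, lay above the severed columns, at 12.61 and 12.87. With median scaling every severed column lay below every sham column on day 1, and above every sham column on days 7 and 14.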

How the results depend on the processing

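With median scaling the median difference of the ribosomal protein genes moved to 2.05 for fibroblasts minus reference, -0.73 for fibroblasts minus unmanipulated ligament, -0.90 for late severed minus unmanipulated, 3.02 for unmanipulated minus reference, 0.80 for the mean of severed minus sham, and -1.59, 2.55, 2.01 and 2.52 for days 1, 2, 7 and 14; the calls became 8 for fibroblasts minus unmanipulated, 1 for late severed and 6 for day 14. In the authors' value table these medians were 1.89, 0.53, -0.75 and 1.48, with -0.67, 0.80, -0.71, 2.05 and 0.95 for days 1, 2, 4, 7 and 14. The calls there were 4 for late severed and 1 each for days 2 and 14, against 10.2%, 5.33% and 4.56% of all genes called. In that table Rps19 (0.14) and Rps4x (0.19) turned sign between fibroblasts and unmanipulated ligament, where the median over all genes was 1.35. With no window left out the median was 0.23 for fibroblasts minus reference and -0.60 for day 7, and the calls were 30 and 6 for fibroblasts minus reference and minus unmanipulated. Windows with a correlation under 0.6 left out gave medians of 1.66 and 1.73 for fibroblasts and unmanipulated ligament minus reference, with 8 calls each, since most reference values are then missing; windows in file order gave 0.19 for fibroblasts minus reference. Spots not found set to missing, in all but the fibroblast columns, gave 29 calls for fibroblasts minus unmanipulated, 1 for the mean of severed minus sham, 1 on day 2 and 3 on day 14. Symbols of the file alone gave medians of 1.11 and 1.42 for fibroblasts and unmanipulated minus reference, with 25 and 32 calls, and 9 calls for fibroblasts minus unmanipulated; standard symbols alone gave 28 and 37 calls against the reference and a median of 1.30 for unmanipulated minus reference. With no dye term there were 1, 3 and 2 calls on days 2, 10 and 14. Where no share of all genes is given for a setting, its count of calls is not a result about the members.

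The replicate block gave 25 calls for fibroblasts minus unmanipulated ligament, 1 for late severed minus unmanipulated and 1 on day 10. No share of all genes is given here for the late severed count. Of 25 same-numbered severed and sham pairs 23 were the 2 dyes of 1 array, so the numbers pair columns by array; whether they also pair animals is not given. Of these pairs, 24 of 25 had deviations correlated over 0.1 (lowest -0.03, median 0.404) and 24 of 25 severed columns correlated best with their own number.

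Leaving out single columns gave -0.11 to 0.01 for the fibroblasts minus unmanipulated median and 11 to 14 calls; 0 to 1 calls for late severed and for day 7, the 1 call in each arising without severed day 7 replicate 3. Of single-gene values under the alternatives, 824 kept sign and side of the threshold, 63 lost the call and 2 turned sign. The order of quantile step and windows, the floor, the filter, the choice of probe, the array block (correlation 0.248) and the day 2 dyes as labelled changed none of the counts by over 1.5 times.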

Other observations

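Other cell markers differed between fibroblasts and unmanipulated ligament in the same fit. Of the 8 measured macrophage markers 4 were lower in fibroblasts (median -2.48), of 5 adipocyte markers 3 were lower (median -3.57), and of 6 endothelial markers 2 were lower, Kdr and Vwf (median -0.73). Of 6 proliferation genes 3 were higher in fibroblasts, Mcm2 (1.70), Ccnb1 (1.60) and Cdk1 (1.19). Over all genes 9.58% were called in this comparison. The part of these cell markers in the values of the ribosomal protein genes was not tested.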
